A study of Mus musculus with 12 samples.

Results

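The genes described here encode the chains of integrins and laminins that carry a numbered symbol, which are the 12 numbered integrin alpha chains, 9 integrin beta chains and 11 laminin chains found by their symbols among the 21671 genes of the expression table. The rule that picked these 32 genes used their symbols and no measured value, but it was set with earlier results of these data known. RNA-seq was done on 3T9MycER fibroblasts, immortalized mouse embryo cells that constitutively express MycER, in which Myc is fused to the hormone-binding domain of the receptor for estrogen, and which is switched on by 4-hydroxytamoxifen (OHT). All 6 groups carried MycER and had 2 libraries each, namely the solvent DMSO, verteporfin (VP) and Y27632 (Y27), each without and with OHT. VP keeps YAP from acting with the TEAD transcription factors and was used at 20 µM. Y27 inhibits ROCK, a kinase that drives actomyosin contraction, and was used at 50 µM. The labels give 8 h for either inhibitor. The dose and time of OHT in these samples and the state of the cultures (described as confluent in the series' design and as subconfluent and serum-starved in the study) are not settled by the sources used here.

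Integrins are pairs of an alpha and a beta chain that span the plasma membrane. Outside the cell they bind matrix proteins, and inside it they connect through talin, kindlin and other linkers to actin filaments. Laminins are cross-shaped trimers of an alpha, a beta and a gamma chain and the organizing proteins of basement membranes, where they are bound by integrins and dystroglycan. In fibroblasts, integrins hold the cell to collagen and fibronectin and carry tension between the matrix and the cytoskeleton, which is known to act on YAP.

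Values are RPKM, the reads of a gene scaled to its length and to the total of the library, after lost decimal signs were put back, so levels of different genes are compared per length. A gene was tested if its mean over the 12 libraries was at least 0.5 RPKM, which held for 17 of the 32 genes (9 alpha, 4 beta and 4 laminin chains) and for 11070 genes in all. Changes are limma estimates on the log2(RPKM + 1) scale with their standard error (SE), called at an adjusted p under 0.05. The added 1 makes changes of genes near or under 1 RPKM smaller. Library totals were 21857777 to 30856488 reads. Nothing states that the 2 libraries of a group came from separate cultures, so p-values measure only the spread between these libraries. No library held more than 1.80 reads per base in any of the 9987 genes of at least 1000 bases examined, and values of 20 RPKM or more, among these genes those of Lamb2, Itgb1, Itgb5 and Lamc1, may be limited from above, whose part in the results was not tested. Fibroblast markers were high (8 of 12 at a mean of 0.5 RPKM or more, Vim 56.1 RPKM), although Thy1, Lum, Fap and Dcn were under 0.5 RPKM.

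Since VP keeps YAP from acting with TEAD, the 250 bases before each start site were searched on both strands for the TEAD core motif GGAATG, together with the E-box CACGTG bound by Myc, the AP-1 motif TGANTCA and the CArG box of SRF. Promoter sequences came from RefSeq (GRCm38.p6) and matched 21 of the 32 genes, 13 of them tested; Itga6, Itga7, Itgb3 and Lamc1 were tested and had none there. The TEAD motif stood in 2 of these 13, Itga10 and Itgb1, and in 12.6% of all 32851 windows of this length. The E-box, the AP-1 motif and the CArG box stood in 0 of the 13, and in 6.02%, 6.75% and 1.47% of all windows, so the matches shown overlap none of them. The windows of the genes with a match are shown 5′ to 3′ with the match in capitals, 75 to 70 bases before the start of Itga10 (chr3:96645334-96645583, + strand; match on the − strand) and 7 to 2 bases before that of Itgb1 (chr8:128685404-128685653, + strand; match on the + strand). A match describes the letters only.
Itga10: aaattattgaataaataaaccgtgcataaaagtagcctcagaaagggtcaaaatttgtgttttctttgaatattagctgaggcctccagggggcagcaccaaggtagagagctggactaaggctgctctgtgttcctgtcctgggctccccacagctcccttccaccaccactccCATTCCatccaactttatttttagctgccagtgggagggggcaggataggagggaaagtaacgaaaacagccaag
Itgb1: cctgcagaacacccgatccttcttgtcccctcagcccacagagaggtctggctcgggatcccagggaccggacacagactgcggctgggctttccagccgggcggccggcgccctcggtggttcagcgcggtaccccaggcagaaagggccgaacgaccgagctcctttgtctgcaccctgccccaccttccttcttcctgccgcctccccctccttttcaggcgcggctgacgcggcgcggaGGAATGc

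VP lowered most of the integrin and laminin chains tested. Without OHT, 15 of the 17 chains tested fell and 0 rose, where 40.8% of all genes tested fell and 67.8% changed in either direction. The median log2 change was -1.08, against -0.08 over all genes tested. Of all genes called, 39.9% were higher, a share of 49.1% once scaled by median ratios and 51.1% once quantile normalized. All 4 laminin chains, 8 of 9 alpha chains and 3 of 4 beta chains were among those that fell. The falls ran from -2.03 for Itga1, the alpha chain of a collagen receptor, to -0.57 for Itga5, the alpha chain of the fibronectin receptor. Itga2b and Itgb8 were the chains that did not pass, at log2 changes of -0.20 (limma adjusted p = 0.051) and -0.21 (limma adjusted p = 0.062). These misses depended on the settings. With a pseudocount of 0.1, 16 of the 17 chains were called, and without the mean-variance trend 17. Under median-ratio scaling or quantile normalization 15 were called. The summed level of the fibroblast markers, of which several are matrix genes, moved with these falls, at 254 to 262 RPKM in DMSO and 137 to 145 in VP, and its part in them was not tested. The markers did not move alike. From DMSO to VP, the group mean of Col1a1 went from 43.7 to 16.4 RPKM and that of Pdgfrb from 13.6 to 2.71. Vim, the marker with the highest mean, went only from 55.7 to 50.5, at levels where values may be limited from above. The part of this limit in the small change of Vim was not tested. Fap, at a low level, went from 0.102 to 0.106. In such bulk samples fewer cells of a type and less RNA per cell cannot be told apart.

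**Figure D1:**
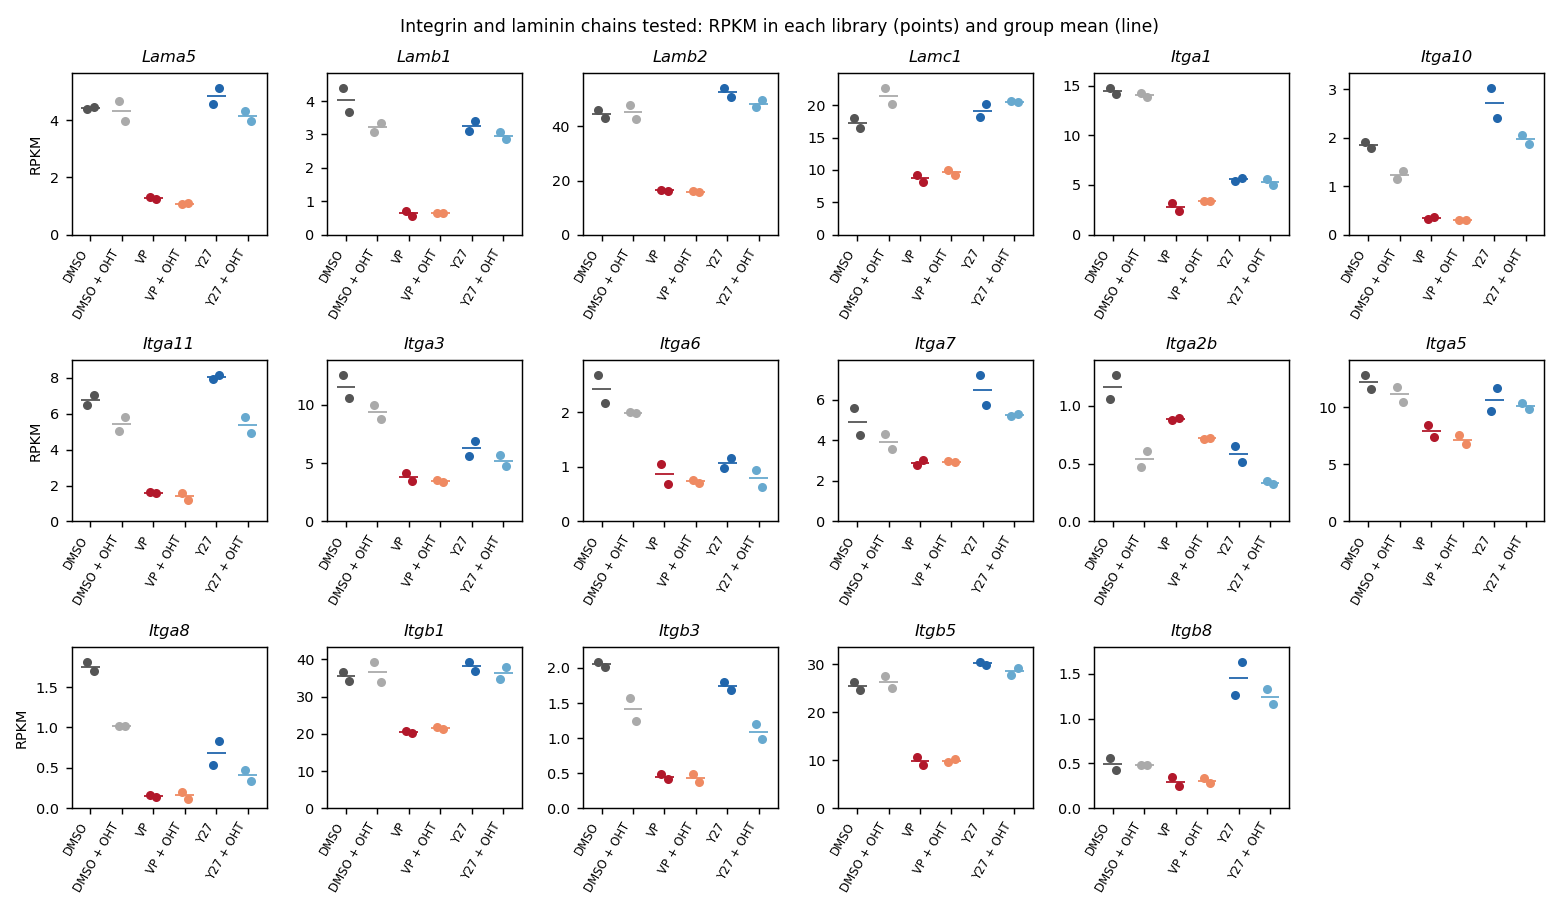
RPKM (y axis, from 0) of each of the 17 chains tested in the 6 groups (x axis), with 1 point for each of the 2 libraries and a line at the group mean. In VP and VP + OHT nearly all chains sit low, Itga1 at 2.41 to 3.43 RPKM, while in Y27 Itga1, Itga3, Itga6 and Itga8 sit low and Itgb8 and Itga10 sit high.

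Among the laminins, the beta 2 chain Lamb2 was the most abundant gene of the set, with the gamma 1 chain Lamc1, the beta 1 chain Lamb1 and the alpha 5 chain Lama5 completing the trimers that these cells could form from tested chains. Lamb2 was at 46.0 and 43.0 RPKM in DMSO and at 48.0 and 42.9 with OHT added. Under VP, Lamb2 was at 16.5 and 16.1 (16.1 and 15.6 with OHT), and under Y27 at 54.3 and 51.0 (47.1 and 49.7 with OHT). Its 4 VP libraries were all below its 8 other libraries, and VP without OHT took it to 36.7% of its DMSO mean (log2 change -1.39, SE 0.08, limma adjusted p = 6e-09). Lamc1, the gamma chain that most laminin trimers share, was at 18.1 and 16.5 RPKM in DMSO and at 22.7 and 20.2 with OHT added. Under VP, Lamc1 was at 9.28 and 8.14 (9.97 and 9.29 with OHT), and under Y27 at 18.2 and 20.2 (20.6 and 20.5 with OHT). It fell less than Lamb2, to 50.3% of its DMSO mean (log2 change -0.92, SE 0.08, limma adjusted p = 4.1e-07), and again no VP library reached the level of a library outside VP. Lamb1, an alternative to Lamb2 in the trimer, was at 4.39 and 3.66 RPKM in DMSO and at 3.08 and 3.34 with OHT added. Under VP, Lamb1 was at 0.697 and 0.572 (0.647 and 0.645 with OHT), and under Y27 at 3.11 and 3.40 (3.06 and 2.86 with OHT). This was the largest fall of a laminin chain in VP, to 15.7% of DMSO (log2 change -1.62, SE 0.09, limma adjusted p = 4.4e-09). Lama5, an alpha chain of many adult basement membranes, was at 4.40 and 4.44 RPKM in DMSO and at 4.67 and 3.96 with OHT added. Under VP, Lama5 was at 1.31 and 1.24 (1.06 and 1.09 with OHT), and under Y27 at 4.57 and 5.12 (4.33 and 3.96 with OHT). VP without OHT left 28.8% of its DMSO level (log2 change -1.25, SE 0.09, limma adjusted p = 3.1e-08), and its 8 libraries outside VP lay within 3.96 to 5.12 RPKM.

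Of the alpha chains of collagen receptors, which pair with Itgb1, Itga1 was the most abundant. Itga1, whose receptor prefers basement membrane collagen, was at 14.8 and 14.1 RPKM in DMSO and at 14.2 and 13.8 with OHT added. Under VP, Itga1 was at 3.21 and 2.41 (3.43 and 3.41 with OHT), and under Y27 at 5.39 and 5.74 (5.62 and 4.99 with OHT). Both inhibitors lowered it, VP to 19.5% of its DMSO mean (log2 change -2.03, SE 0.09, limma adjusted p = 7.2e-10), and the VP libraries were also all below the Y27 libraries. Itga11, whose receptor binds fibrillar collagen in fibroblasts, was at 6.45 and 7.03 RPKM in DMSO and at 5.05 and 5.79 with OHT added. Under VP, Itga11 was at 1.65 and 1.56 (1.58 and 1.22 with OHT), and under Y27 at 7.92 and 8.16 (5.83 and 4.90 with OHT). It fell to 23.8% in VP (log2 change -1.57, SE 0.10, limma adjusted p = 1.2e-08) while its Y27 libraries were above its DMSO libraries. Itga10, a collagen receptor chain best known from cartilage, was at 1.90 and 1.79 RPKM in DMSO and at 1.14 and 1.30 with OHT added. Under VP, Itga10 was at 0.321 and 0.364 (0.304 and 0.296 with OHT), and under Y27 at 3.03 and 2.41 (2.05 and 1.88 with OHT). It was lowest in VP, at 18.6% of DMSO (log2 change -1.08, SE 0.09, limma adjusted p = 2.1e-07), and highest in Y27. Summed over Itga1, Itga2, Itga10 and Itga11, the collagen-binding chains were at 23.4 RPKM in both DMSO libraries, 4.53 and 5.51 in VP and 16.5 in both Y27 libraries. Per GENCODE vM21 on GRCm38, 451 exon bases of Itga1 and 1739 of Itga10 are shared with Gm49395 and Gm42957 on the same strand, and reads there cannot be assigned to either gene.

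The laminin-binding alpha chains Itga3, Itga6 and Itga7 fell less evenly. Itga3, an alpha chain of a receptor for laminins with the alpha 5 chain, was at 12.6 and 10.5 RPKM in DMSO and at 9.95 and 8.79 with OHT added. Under VP, Itga3 was at 4.18 and 3.47 (3.54 and 3.38 with OHT), and under Y27 at 5.58 and 6.92 (5.66 and 4.72 with OHT). It was high in all 4 DMSO libraries and fell to 33.1% of DMSO in VP (log2 change -1.38, SE 0.11, limma adjusted p = 2e-07). Itga6, which can pair with Itgb1 or Itgb4, was at 2.68 and 2.16 RPKM in DMSO and at 1.99 and 1.98 with OHT added. Under VP, Itga6 was at 1.06 and 0.683 (0.765 and 0.704 with OHT), and under Y27 at 0.970 and 1.15 (0.941 and 0.636 with OHT). Its libraries in both inhibitors were all below its 4 DMSO libraries (35.9% of DMSO in VP; log2 change -0.87, SE 0.12, limma adjusted p = 1.6e-05). Itga7, known as the main laminin receptor chain of muscle, went from 4.93 ± 0.927 RPKM (SD, n = 2) in DMSO to 2.90 ± 0.171 in VP (log2 change -0.60, SE 0.12, limma adjusted p = 0.00045). Muscle markers were low (4 of 4 under 0.5 RPKM, Myod1 at 0, summed level at most 0.0616 RPKM in any library).

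Among the numbered alpha chains tested, those of receptors that bind the RGD sequence of fibronectin and related proteins were Itga5, Itga8 and Itga2b. Itga5 was the chain that fell least among those called in VP, from 12.2 ± 0.860 RPKM (SD, n = 2) to 7.90 ± 0.721 (log2 change -0.57, SE 0.10, limma adjusted p = 0.00013). Itga5 made up 36.2% and 36.3% of the summed RPKM of the numbered alpha chains in the VP libraries, against 21.1% and 21.3% in DMSO. This sum leaves out the alpha V chain, Itgav, with group means of 11.8 RPKM in DMSO and 5.19 in VP. Itga8, a receptor chain for nephronectin, was at 1.81 and 1.69 RPKM in DMSO and at 1.02 and 1.02 with OHT added. Under VP, Itga8 was at 0.171 and 0.139 (0.206 and 0.114 with OHT), and under Y27 at 0.535 and 0.838 (0.477 and 0.343 with OHT). In VP it was at 8.82% of DMSO, the lowest share of any chain tested (log2 change -1.25, SE 0.09, limma adjusted p = 8.2e-08), although Itga1 changed more on the scale of the test. Itga2b, the alpha chain of the fibrinogen receptor of platelets, was at 1.05 and 1.26 RPKM in DMSO and at 0.473 and 0.607 with OHT added. Under VP, Itga2b was at 0.876 and 0.889 (0.712 and 0.719 with OHT), and under Y27 at 0.655 and 0.516 (0.346 and 0.324 with OHT). The DMSO libraries were the highest and the Y27 + OHT libraries the lowest, and VP lay between. Of the platelet markers, Ppbp was at a mean of 5.23 RPKM while Pf4, Gp1bb and Gp9 were at 0.190, 0.438 and 0.0110. The summed level of the 4 moved with Itga2b between DMSO (7.39 and 7.42) and Y27 (3.06 and 3.40) but not between DMSO and VP (7.95 and 9.90). Most of this sum was Ppbp, with group means of 6.62 RPKM in DMSO, 2.22 in Y27 and 8.41 in VP. Gp1bb moved opposite to Ppbp, at 0.516, 0.820 and 0.251 in the same groups. The part of these markers in the values of Itga2b was not tested.

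Among the beta chains, Itgb1 and Itgb5 were the most abundant. Itgb1, the shared partner of most of the alpha chains above, went from 35.5 ± 1.76 RPKM (SD, n = 2) in DMSO to 20.4 ± 0.332 in VP (log2 change -0.76, SE 0.08, limma adjusted p = 3.3e-06). Itgb5, which pairs with the alpha V chain to bind vitronectin, was at 26.4 and 24.6 RPKM in DMSO and at 27.5 and 24.98 with OHT added. Under VP, Itgb5 was at 10.8 and 9.06 (9.59 and 10.3 with OHT), and under Y27 at 30.5 and 29.8 (27.9 and 29.3 with OHT). It fell more than Itgb1, to 38.9% of DMSO (log2 change -1.28, SE 0.08, limma adjusted p = 1.7e-08), so that Itgb1 took 60.7% and 63.4% of the summed beta chain RPKM in VP, against 55.3% and 55.4% in DMSO. Both genes were above 20 RPKM in DMSO, where values may be limited from above. The part of this limit in the shares was not tested. Itgb3, the partner of Itga2b and of the alpha V chain, was at 2.09 and 2.01 RPKM in DMSO and at 1.57 and 1.25 with OHT added. Under VP, Itgb3 was at 0.483 and 0.415 (0.490 and 0.376 with OHT), and under Y27 at 1.81 and 1.69 (1.20 and 0.983 with OHT). Its 4 libraries with VP were the lowest, and VP without OHT left 21.9% of the DMSO mean (log2 change -1.07, SE 0.09, limma adjusted p = 2.3e-07). Itgb8, whose receptor with the alpha V chain activates latent TGF-beta, was at 0.565 and 0.430 RPKM in DMSO and at 0.482 and 0.488 with OHT added. Under VP, Itgb8 was at 0.349 and 0.246 (0.333 and 0.283 with OHT), and under Y27 at 1.26 and 1.64 (1.33 and 1.16 with OHT). It was highest in the 4 libraries with Y27 and did not pass the test in VP. Over all beta chains, the summed level was 61.8 and 66.3 RPKM in DMSO, 31.9 and 34.1 in VP and 70.5 and 73.6 in Y27.

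**Figure D2:**
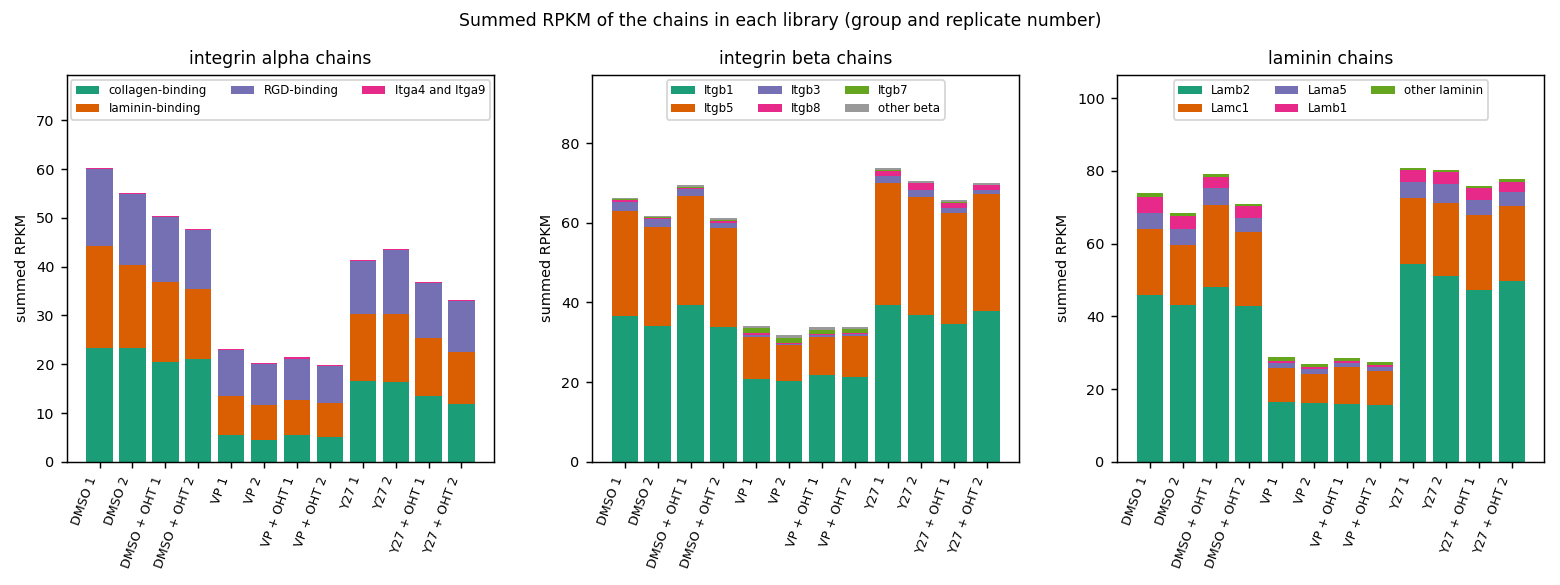
Stacked bars of summed RPKM (y axis) in each of the 12 libraries (x axis), for the alpha chains by ligand class, for the beta chains and for the laminin chains. The collagen-binding alpha chains shrink from 23.4 RPKM in DMSO to 4.53 and 5.51 in VP, while the beta chains stay at 61.3 RPKM or more in all libraries outside VP.

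With OHT present, the effect of VP was again a fall in 15 of 17 chains and a rise in 0 (39.1% and 25.5% of all genes tested), with a median log2 change of -0.80 against -0.08 over all genes. Of all genes called 39.5% were higher, and 50.5% and 50.3% under the same scalings. Itga1 (-1.76), Lamb2 (-1.46) and Itga11 (-1.42) fell the most, and Itga2b (0.16, limma adjusted p = 0.11) and Itgb8 (-0.18, limma adjusted p = 0.097) did not pass. The call of Itga7 (-0.32, limma adjusted p = 0.028) was lost without DMSO + OHT replicate 1 (adjusted p = 0.21), VP + OHT replicate 1 (0.077) or VP + OHT replicate 2 (0.091), with no filter on the mean (0.076) and under median-ratio scaling (0.096) or quantile normalization (0.29).

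Y27 split the chains. Without OHT, 5 of the 17 rose and 6 fell, where 17.2% of all genes tested rose and 33.5% fell, and the median log2 change was 0.10 against -0.07 over all genes. Of all genes called 34.0% were higher, and 46.5% and 52.2% under the same scalings. The falls were in alpha chains and Lamb1, and the rises in Itgb8, Itga10, Itga7, Lamb2 and Itgb5. Itga1 fell from 14.8 and 14.1 RPKM in DMSO to 5.39 and 5.74 in Y27 (log2 change -1.23, SE 0.09, limma adjusted p = 4.3e-07). Itga3 fell to 54.1% of its DMSO mean (log2 change -0.79, SE 0.11, limma adjusted p = 9e-05), Itga6 to 43.8% of it (log2 change -0.73, SE 0.12, limma adjusted p = 0.00018) and Itga8 to 39.2% (log2 change -0.71, SE 0.09, limma adjusted p = 4.7e-05). For each of these 4 genes the Y27 libraries were all below the DMSO libraries. Itgb8 rose from 0.565 and 0.430 RPKM to 1.26 and 1.64 (log2 change 0.71, SE 0.09, limma adjusted p = 4e-05), or 291% of its DMSO mean, the largest rise of a chain in Y27. The other falls were Itga2b (-0.45) and Lamb1 (-0.24), and the other rises Itga10 (0.38), Itga7 (0.34), Lamb2 (0.24) and Itgb5 (0.23).

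The smaller changes with Y27 depended on single libraries. The call of Itga7 was lost without DMSO replicate 2 (limma adjusted p = 0.27) or Y27 replicate 1 (0.23). That of Itgb5 was lost without DMSO replicate 2 (0.15), Y27 replicate 1 (0.12) or Y27 replicate 2 (0.072), and that of Lamb2 without DMSO replicate 2 (0.13) or Y27 replicate 1 (0.16). Lamb1 lost its call without DMSO replicate 1 (0.33), Y27 replicate 1 (0.18), Y27 replicate 2 (0.05) or either VP + OHT library (0.056 each), and under quantile normalization (0.68). Conversely, Itga5 passed without Y27 replicate 2 (0.025), and Itga11 rose under median-ratio scaling (0.03) and quantile normalization (0.013). The falls of Itga1, Itga3, Itga6, Itga8 and Itga2b and the rises of Itgb8 and Itga10 kept their calls without each of the 12 libraries.

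**Figure D3:**
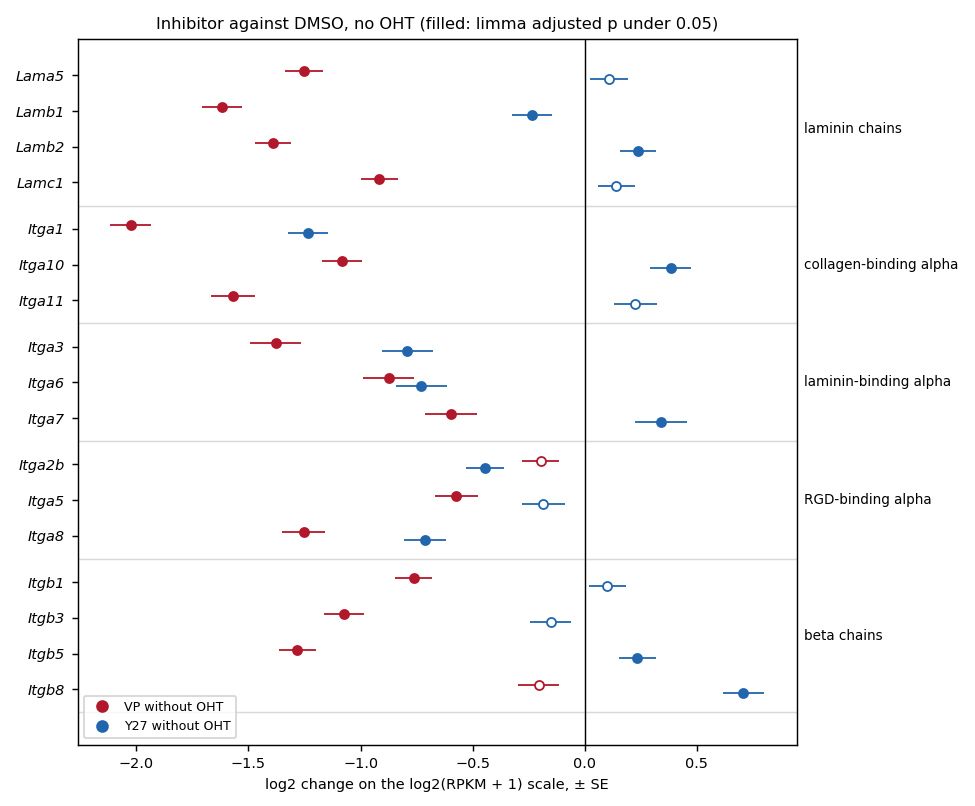
Log2 change against DMSO (x axis, on the log2(RPKM + 1) scale, bars ± SE) of the 17 chains (y axis, by role) for VP and for Y27, both without OHT, with filled points past the threshold. All 17 VP points lie left of 0, from -2.03 for Itga1 to -0.20 for Itga2b, while the Y27 points lie on both sides, from -1.23 for Itga1 to 0.71 for Itgb8.

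With OHT present, Y27 raised Itgb8 (0.59), Itga10 (0.42) and Itga7 (0.35) and lowered Itga1 (-1.25), Itga3 (-0.75), Itga6 (-0.75) and Itga8 (-0.52). These were 3 rises and 4 falls among 17 chains, with 10.3% of all genes tested rising and 32.9% falling. Here the median of all genes was -0.10, moving to 0.01 with median-ratio scaling and to 0.02 with quantile normalization. The share of higher genes among those called moved from 23.8% to 47.6% and 50.0%, so that changes near 0 depend on the scaling. No laminin chain passed, the lowest limma adjusted p being 0.38 for Lamb2 (log2 change 0.09), which passed under median-ratio scaling (0.023), as did Itgb5 (0.019). The call of Itga7 was lost without DMSO + OHT replicate 2 (limma adjusted p = 0.19), Y27 + OHT replicate 1 (0.071) or Y27 + OHT replicate 2 (0.1), and Itgb3 (-0.20, adjusted p = 0.084) passed without DMSO + OHT replicate 2 (0.037).

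The 2 inhibitors were also set against each other directly, without OHT. Of the 17 chains, 15 were lower in VP than in Y27 and 1, Itga2b, was higher, where 36.1% of all genes tested were lower and 34.4% higher. The widest differences were in Itga11 (log2 difference -1.79, SE 0.10), Lamb2 (-1.63, SE 0.08), Itgb5 (-1.52, SE 0.08) and Itga10 (-1.47, SE 0.09). Even Itga1, Itga3 and Itga8, which both inhibitors lowered, were lower in VP, with log2 differences of -0.79, -0.59 and -0.54. Itga6 did not pass (log2 change -0.15, SE 0.12, limma adjusted p = 0.27), its 2 VP libraries being at 1.06 and 0.683 RPKM and its 2 Y27 libraries at 0.970 and 1.15. Itga2b was at 0.876 and 0.889 RPKM in VP and 0.655 and 0.516 in Y27 (log2 change 0.25, SE 0.08, limma adjusted p = 0.016), and its call was lost without VP replicate 1 (0.052), VP replicate 2 (0.059) or Y27 replicate 2 (0.12).

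Of the chains that changed when OHT activated MycER in DMSO, most fell. OHT lowered 6 of the 17 tested and raised 1, where 9.97% of all genes tested fell and 24.2% rose. The median log2 change was -0.19, against 0.06 over all genes. The share of rises among all genes called was 70.8%, and 45.9% and 48.2% under the 2 scalings. Itga2b fell from 1.05 and 1.26 RPKM to 0.473 and 0.607 (log2 change -0.49, SE 0.08, limma adjusted p = 0.00069) and Itga8 from 1.81 and 1.69 to 1.02 and 1.02 (log2 change -0.45, SE 0.09, limma adjusted p = 0.003). In both genes the DMSO + OHT libraries lay below the DMSO libraries. The summed level of the platelet markers moved with Itga2b here too, at 7.39 and 7.42 RPKM in DMSO and 4.56 and 5.01 in DMSO + OHT, and its part in this fall was not tested. Itga10 fell by less (log2 change -0.36, SE 0.09, limma adjusted p = 0.0086), as did Itgb3 (log2 change -0.34, SE 0.09, limma adjusted p = 0.011), Itga11 (-0.27) and Lamb1 (-0.25). The chain that rose was Lamc1, from 18.1 and 16.5 to 22.7 and 20.2 RPKM (log2 change 0.29, SE 0.08, limma adjusted p = 0.014).

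The calls of Itga2b and Itga8 held without each of the 12 libraries, and the others did not. Itga10 lost its call without DMSO replicate 1 (limma adjusted p = 0.052) or DMSO + OHT replicate 1 (0.072), Itgb3 without DMSO replicate 1 (0.055) or DMSO + OHT replicate 2 (0.09), and Lamc1 without DMSO replicate 2 (0.11) or DMSO + OHT replicate 1 (0.12) and under median-ratio scaling (0.054). Itga11 lost it without DMSO replicate 1 (0.066), DMSO replicate 2 (0.24), DMSO + OHT replicate 1 (0.28) or either VP library (0.056 each). Lamb1 lost it without DMSO replicate 1 (0.31), DMSO + OHT replicate 1 (0.21), DMSO + OHT replicate 2 (0.061) or either VP + OHT library (0.062 each). Under median-ratio scaling Itga3 (0.012), Itga5 (0.044) and Itga7 (0.027) also fell.

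In VP, OHT changed 0 of the 17 chains in the limma fit, with 1 at an unadjusted p under 0.05 and a lowest adjusted p of 0.17, for Itga1 (log2 change 0.22, SE 0.09). The chains that OHT lowered in DMSO were already low in VP without OHT. Their means there were 0.155 RPKM for Itga8, 0.343 for Itga10, 0.45 for Itgb3, 0.634 for Lamb1, 0.882 for Itga2b and 1.61 for Itga11. At such levels the added 1 makes changes smaller, so a further fall could be missed. Of all genes tested 5.82% were called, 91.5% of them higher (69.9% and 62.5% under the 2 scalings). In Y27, OHT lowered 4 chains and raised 0, where 11.9% of all genes tested fell and 19.9% rose (62.6% of calls higher, and 48.3% and 44.9% under the scalings). Itga11 fell from 7.92 and 8.16 RPKM to 5.83 and 4.90 (log2 change -0.51, SE 0.10, limma adjusted p = 0.0014), Itgb3 from 1.81 and 1.69 to 1.20 and 0.983 (log2 change -0.40, SE 0.09, limma adjusted p = 0.005), and Itga10 and Itga2b by less (log2 changes -0.32 and -0.25). Itga11 kept its call without each library. Itgb3 lost it without Y27 + OHT replicate 2 (adjusted p = 0.055), Itga10 without Y27 replicate 1 (0.14) or Y27 + OHT replicate 2 (0.098), and Itga2b without Y27 replicate 1 (0.21), Y27 + OHT replicate 1 (0.1), Y27 + OHT replicate 2 (0.14) or either VP + OHT library (0.054 each).

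**Figure D4:**
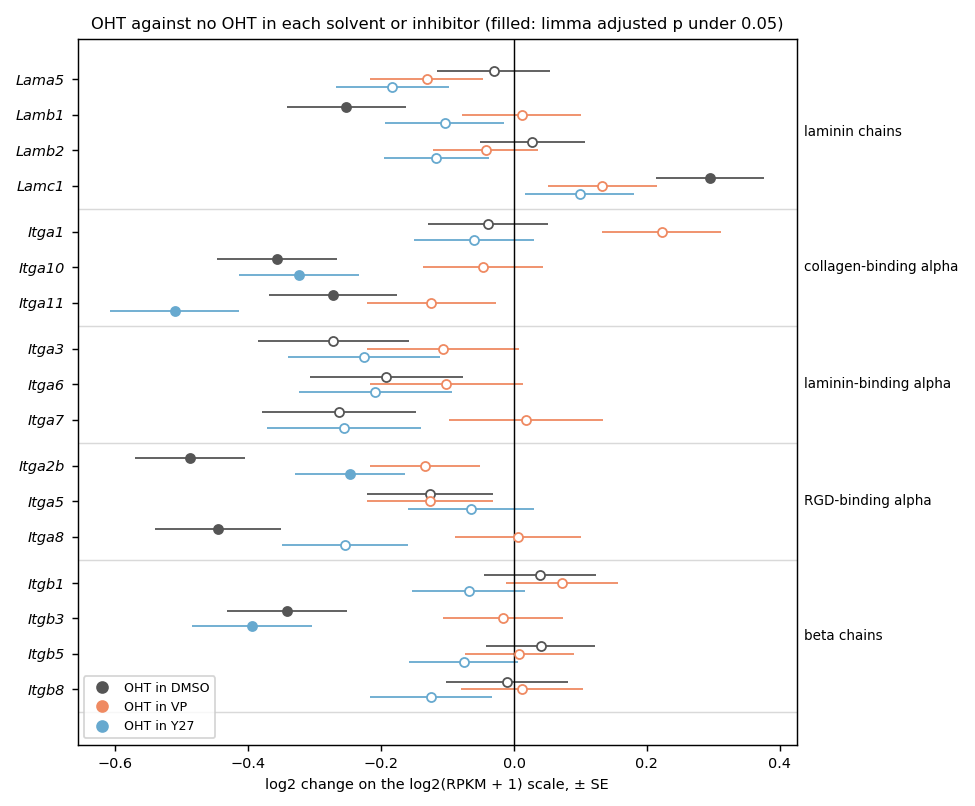
Log2 change with OHT (x axis, on the log2(RPKM + 1) scale, bars ± SE) of the 17 chains (y axis, by role) in DMSO, VP and Y27, with filled points past the threshold. In DMSO the points of Itga2b and Itga8 lie lowest, at -0.49 and -0.45, and no VP point is filled.

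Whether the OHT response differed between solvent and inhibitor was tested in the same fit. For VP against DMSO, 0 of the 17 chains passed in limma, 4 were at an unadjusted p under 0.05, and 4.08% of all genes tested were called. The lowest adjusted p was 0.084, for Itga8 (difference 0.45, SE 0.13), which had 0.171 and 0.139 RPKM in VP and 0.206 and 0.114 in VP + OHT. This difference passed with median-ratio scaling (0.041) and quantile normalization (0.041). The low levels in VP given above limit this comparison too. For Y27 against DMSO, 0 passed in limma, 0 were at an unadjusted p under 0.05, and 0.126% of all genes were called.

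Of the 15 chains under the minimum of 0.5 RPKM, Itgb7, Itgb2 and Lama4 had libraries with VP that stood apart from the rest. Itgb7, a chain of lymphocyte integrins, was at 0.168 and 0.106 RPKM in DMSO and at 0.173 and 0.259 with OHT added. Under VP, Itgb7 was at 1.24 and 1.17 (1.08 and 0.882 with OHT), and under Y27 at 0.205 and 0.169 (0.239 and 0.186 with OHT), and the 4 libraries with VP were all above the other 8. Itgb2, the beta chain shared by leukocyte integrins, had 18 and 28 reads under VP and 13 and 17 under VP with OHT. Outside VP it had 1 and 0 in DMSO and 0 in the other 6 libraries, a count of 0 allowing up to 3 reads. Its highest value was 0.363 RPKM. Leukocyte markers gave a mixed picture: Cd14 was at 1.54 RPKM in DMSO and 6.54 in VP and Cd68 at 1.60 and 2.51, whereas Ptprc, which all leukocytes express, Emr1, Lyz2, Csf1r and Itgam were each at 0.0691 RPKM or less in every library. The summed level of the 7 markers measured was 3.01 to 3.42 RPKM in DMSO, 8.97 to 9.25 in VP and 2.47 to 2.65 in Y27, and its part in the values of Itgb2 and Itgb7 was not tested. Epithelial markers summed to at most 0.116 RPKM. Lama4, a laminin alpha chain of vessel walls, was at 0.616 and 0.472 RPKM in DMSO and at 0.448 and 0.466 with OHT added. Under VP, Lama4 was at 0.115 and 0.0701 (0.120 and 0.0972 with OHT), and under Y27 at 0.409 and 0.487 (0.511 and 0.503 with OHT), lowest in the 4 libraries with VP. When the minimum was dropped, limma placed Itgb7 (log2 change 0.96, adjusted p = 2.7e-06) and Itgb2 (0.34, 0.00035) higher and Lama4 (-0.50, 3.9e-05) lower in VP without OHT. Of the others, 11 had highest values of 0.486 RPKM for Itga2, 0.455 for Itgb4, 0.271 for Itga4, 0.0954 for Itgb6, 0.0694 for Lamb3, 0.0567 for Lama2, 0.0521 for Itga9, 0.0369 for Lama3, 0.0193 for Lamc3, 0.0156 for Lama1 and 0.0146 for Itgb2l.

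Partners and linkers of the chains, from lists compiled by function, are given as counts beside the background above. Without OHT, 40.8% of all genes tested fell in VP, and in Y27 33.5% fell and 17.2% rose. Itgav, the alpha V partner of Itgb3, Itgb5 and Itgb8 that the numbered symbols leave out, was at 12.04 and 11.6 RPKM in DMSO and at 11.3 and 10.6 with OHT added. Under VP, Itgav was at 5.53 and 4.85 (5.54 and 5.06 with OHT), and under Y27 at 12.1 and 13.4 (10.5 and 10.4 with OHT). It fell in VP (log2 change -1.05, SE 0.07, limma adjusted p = 4.6e-08), as its partners Itgb5 and Itgb3 did, and was not changed past the threshold by Y27 (0.10, limma adjusted p = 0.28). Of the 14 tested partners of laminins in basement membranes, 13 fell in VP and 1 rose (median log2 change -1.21). The collagen IV chains fell the most: Col4a5 went from 11.7 ± 0.186 RPKM (SD, n = 2) to 0.831 ± 0.0977 (log2 change -2.79) and Col4a2 from 8.81 ± 0.751 to 0.933 ± 0.0565 (-2.34), while Col18a1 rose (0.44). In Y27, 5 of these partners rose, led by Smoc1 (0.71) and the perlecan gene Hspg2 (0.59), and 3 fell, led by the netrin genes Ntn1 (-0.59) and Ntn4 (-0.56).

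Of 24 tested integrin ligands other than laminins, 18 fell and 2 rose in VP (median -1.10). Tgfb3, whose latent form is bound by integrins, fell (log2 change -2.28), as did Emilin1, an elastic fibre glycoprotein (-2.01), while Icam1, a leukocyte adhesion ligand, rose from 0.0880 ± 0.0329 RPKM (SD, n = 2) to 3.16 ± 0.516 (log2 change 1.93) and the matrix glycoprotein Tnc rose by 0.27. In Y27, 11 rose and 4 fell (median 0.14), with Tgfb1 (0.93) and the fibronectin gene Fn1 (0.50) leading the rises and Ctgf, a YAP target, falling from 21.0 ± 2.25 RPKM (SD, n = 2) to 2.46 ± 0.323 (-2.67). In VP, Ctgf fell far less, to 15.6 ± 2.54 RPKM (log2 change -0.41, limma adjusted p = 0.03). Of 13 tested laminin receptors other than integrins, counting the enzymes that glycosylate dystroglycan, 11 fell and 0 rose in VP (median -0.56). The syndecan Sdc1 (-2.26) and dystroglycan, Dag1 (-1.50), fell the most, Dag1 being at 33.4 and 30.9 RPKM in DMSO and 11.6 and 9.89 in VP. In Y27 Dag1 did not pass (0.10, limma adjusted p = 0.37). Of the 13, 6 fell and 1 rose (Sdc2, 0.27), where 33.5% of all genes tested fell and 17.2% rose. The falls were led by Pomt1 (-0.92), which acts in the sugar chain of dystroglycan.

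Among the genes that link integrins to actin, shares near the background changed in VP. Of 34 tested, 15 fell and 6 rose (median -0.14), led by Kank2 (-1.45) and Nedd9 (-1.38) among the falls and by Src (0.62) and Git1 (0.29) among the rises. In Y27, 14 of these fell and 4 rose, also near the shares over all genes tested (33.5% and 17.2%). Lims2, an adaptor of the kinase Ilk, fell from 1.91 ± 0.0590 RPKM (SD, n = 2) to 0.0257 ± 0.00196 (log2 change -1.50, SE 0.10, limma adjusted p = 1.7e-07), as did Kank1, a talin-binding protein (log2 change -1.02), while Git1 (0.40) and Pxn, paxillin (0.37), rose. OHT in DMSO raised 4 and lowered 5 of the 34, where 24.2% of all genes tested rose and 9.97% fell.

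**Figure D5:**
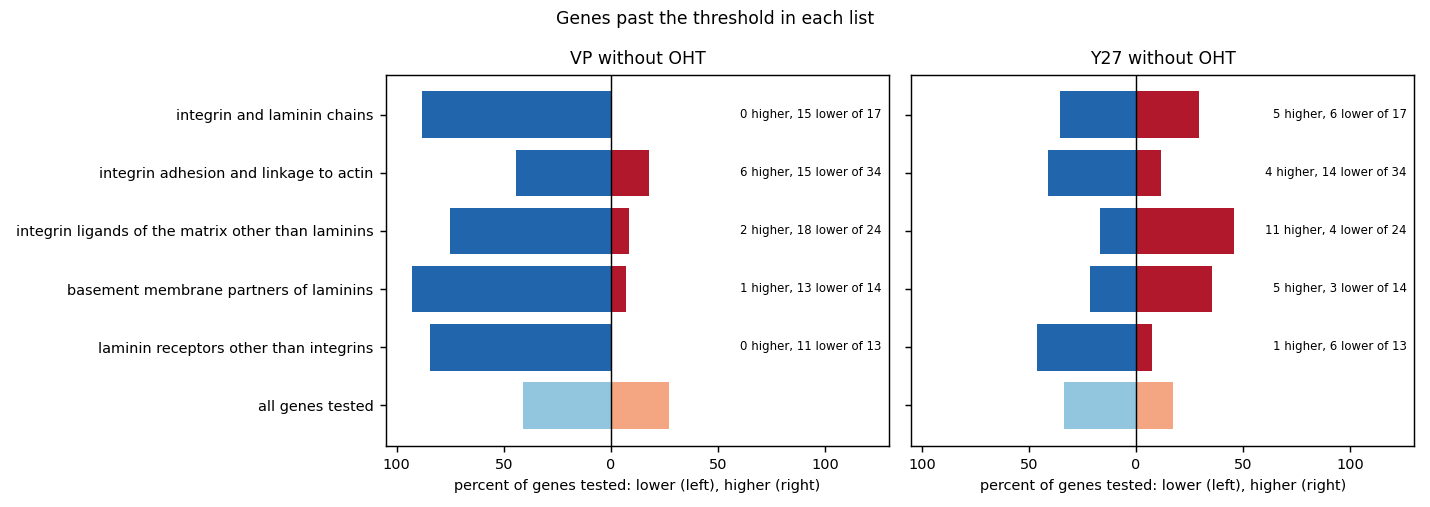
Percent of the tested genes of each list (y axis) that passed the threshold, with lower genes drawn to the left and higher genes to the right of 0 (x axis), for VP and Y27 without OHT, beside all genes tested. In VP the bars of the chains (15 of 17) and of the basement membrane partners (13 of 14) reach far left of that of all genes (40.8%), while in Y27 the bars of the ligands extend further right (11 of 24) than left (4 of 24).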

How the data were processed

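RNA from 12 samples of 3T9MycER cells was sequenced from TruSeq libraries made without poly(A) selection. Per the labels and the submitters' processing notes, the authors aligned reads to mm9 with TopHat2 2.0.8, handled them with SAMtools and counted them with featureCounts 1.4.5-p1. The deposited values are RPKM. The 5 comparison tables of the authors (DESeq2, version not given in the sources used here), which hold log2 fold changes and p-values, were not used, and 0 sample columns lacked a label.

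In the deposited table values of 1 or more had lost their decimal sign (46.4% of 260052 cells). The sign was put back from whole-read arithmetic, since reads, gene length and library total behind an RPKM are all whole. Library totals came from intact low values, and the place of the sign from the smallest whole reads, the annotated length (GENCODE vM21) and closeness of related groups, VP and VP + OHT in particular, so a very large OHT response within an inhibitor could be misplaced. Of 21671 genes, 72 were left out (65 without a length, 4 with a repeated symbol, 3 whose digits did not match). Of the 32 chains, 14 were intact and 18 placed, 8 of them beside intact values of the same gene; the lowest margin over the next placement was 12.0 natural log units, and 159 of 10162 genes had a margin under 5.

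The 11070 genes whose mean reached 0.5 RPKM were fitted with limma 3.58.1 (R 4.3.3) on log2(RPKM + 1) over the 6 groups, with a mean-variance trend and 6 residual degrees of freedom. Tests of 10 contrasts were two-sided, with Benjamini-Hochberg adjustment over all genes tested in each. Contrasts that share a group are not independent. The procedure was tested on simulated data. Some genes are not reported here. Alternatives were other pseudocounts, filters and scalings, 8-library fits, no trend, a replicate block and leaving out each library. Members and lists were chosen with earlier results of these data known. All members could be named; every library's value and full statistics went to up to 12 chains called in VP without OHT and up to 5 in Y27 without OHT and in OHT in DMSO, by size of the change, and of the lists the genes with the largest changes in each direction, with Itgav and Dag1 in any case. Markers of fibroblasts, leukocytes, endothelium (summed at most 0.150 RPKM), epithelium, muscle and platelets were examined. The kit does not mark strand, so reads of overlapping antisense genes cannot be told apart (Itga7 with Mettl7b, Itga8 with E030013I19Rik). Python 3.11.15 was used for the rest.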

Additional observations from a re-analysis of the deposited data

How the results depend on the processing

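Of 3318 values of single chains under the alternatives, 3212 kept their direction and side of the threshold, 66 lost and 40 gained a call, and 0 turned; sign changes between values that were not called on either side were not counted as turns. The 15 falls in VP without OHT were called under every alternative in which the gene was tested. With a minimum mean of 2 RPKM, under which fewer chains were tested, the chains called went from 11 to 6 for Y27 without OHT, from 7 to 3 for Y27 with OHT, from 7 to 3 for OHT in DMSO and from 4 to 1 for OHT in Y27. The last became 8 with median-ratio scaling and 7 with quantile normalization, and the difference of the OHT responses in VP went from 0 to 1 under both. Over all genes, OHT in VP went from 644 calls to 409 (median-ratio), the difference in VP from 452 to 199 (no filter), 706 (median-ratio) and 1195 (quantile), and that in Y27 from 14 to 37 (pseudocount 0.1), 72 (median-ratio) and 71 (quantile). The causes were not tested. Leaving out each library gave 7 to 11 chains for Y27 without OHT (fewest without Y27 replicate 1), 3 to 7 for OHT in DMSO (fewest without DMSO replicate 1 or DMSO + OHT replicate 1, 3 in either case) and 1 to 5 for OHT in Y27 (fewest without Y27 + OHT replicate 2), and over all genes 2331 to 3901 for OHT in DMSO (fewest without DMSO replicate 2), 2350 to 3626 for OHT in Y27, 80 to 709 for OHT in VP (fewest without VP + OHT replicate 2), 124 to 470 for the difference in VP (fewest without VP + OHT replicate 1) and 11 to 25 for that in Y27. Where a group was left with 1 library, its spread was taken from the other groups.

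Replicate numbers are not stated to pair the samples, and deviations of same-numbered libraries correlated at -0.22 to 0.28. A replicate block took the calls for VP without OHT from 7508 to 7455 genes with 15 chains called in either fit, and ended the calls of Itga11 (limma adjusted p = 0.053) and Lamb1 (0.052) for OHT in DMSO; it changed no other call of a chain. Depth limits the chains under 0.5 RPKM, some of which rest on under 20 reads in a library.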
